A study of Mus musculus with 14 samples.

Results

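The genes described here are those of mouse chromosomes 12 and 14 with a mean of at least 5 CPM (a gene's count divided by the library's total count and multiplied by 1000000) over the 6 libraries of the first sample set. Chromosome 12 gave 367 such members of 2468 listed genes and chromosome 14 gave 348 of 2524, together 715 of the 10467 genes at or above that level in the genome. The 2 chromosomes were chosen by their values in a single library, the first replicate with hairpin 1, so every value of that library below describes the selection and is given with no test. The last gene inside the bound was Pcnx4 at 5.02 CPM on chromosome 12 and Ppp3cc at 5.04 CPM on chromosome 14. The first genes outside it were Wdr25 at 4.96 CPM and Il17d at 4.97 CPM.

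The libraries came from mouse small intestinal APT organoids, called tumor organoids in the labels, which carried doxycycline-inducible short hairpins. All of them, controls included, were kept in 0.5 µg/ml doxycycline for 4 days, and poly(A) RNA was sequenced from stranded libraries. Set 1 held 3 control libraries (control clone 1) and 3 libraries with hairpin 1, directed at exon 4 of Suv4-20h2 (gene symbol Kmt5c), a histone methyltransferase. Set 2 held 4 control libraries (control clone 2) and 4 libraries with hairpin 2, directed at exon 9 of the same gene. Each hairpin and each control is labelled as 1 clone, so clone, hairpin and set cannot be told apart. Nothing in the labels says that replicates were separate cultures, so each p-value below measures only how these libraries vary, and that variation may be technical.

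Chromosomes carry many unrelated genes, and in most tissues their RNA levels do not move as a block. When a cell line gains or loses a copy of a chromosome, the RNA of most genes on it shifts one way by a small amount, while genes under strong regulation of their own can depart from that shift. DNA copy number was not measured in these files. Chromosome 12 of the mouse holds the hypoxia factor Hif1a, the DNA methyltransferase Dnmt3a and the interferon-induced Rsad2 and Cmpk2, and chromosome 14 holds the retinoblastoma gene Rb1, the secreted chaperone gene Clu and the kinase gene Ptk2b.

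A pair of neighbouring members lay on opposite sides of the control mean in the first hairpin 1 replicate, both within the range of the controls. The pair thus cannot show whether either gene follows its chromosome or departs from it. Rsad2 (viperin, an antiviral enzyme) lies at chr12:26442746-26456452 on the minus strand and Cmpk2 (a mitochondrial nucleotide kinase, likewise interferon-induced) at chr12:26469204-26479837 on the plus strand. Their 250 bases before the start site are given 5′ to 3′ as RefSeq has them on GRCm38.p6, at chr12:26456453-26456702 (minus strand) and chr12:26468965-26469214 (plus strand). Capitals mark the only match, on either strand, to the interferon response element core GAAANNGAAA, which begins 120 bases before the start site of Rsad2.
Rsad2: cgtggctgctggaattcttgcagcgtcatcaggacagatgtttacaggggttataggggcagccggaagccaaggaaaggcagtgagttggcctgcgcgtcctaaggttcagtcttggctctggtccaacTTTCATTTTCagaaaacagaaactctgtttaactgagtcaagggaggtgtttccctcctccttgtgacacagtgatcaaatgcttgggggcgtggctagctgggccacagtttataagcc
Cmpk2: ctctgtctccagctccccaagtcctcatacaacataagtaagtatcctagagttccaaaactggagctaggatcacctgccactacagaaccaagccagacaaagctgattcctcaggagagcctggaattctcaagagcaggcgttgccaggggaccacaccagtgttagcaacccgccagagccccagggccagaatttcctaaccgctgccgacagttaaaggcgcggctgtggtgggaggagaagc

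This pair was chosen after its values were seen. Rsad2 had 12.6, 39.4 and 6.52 CPM in the 3 set 1 controls and 29.0, 13.97 and 6.66 CPM with hairpin 1. Cmpk2 had 5.02, 23.6 and 4.04 CPM in the controls and 6.22, 9.53 and 6.40 CPM with hairpin 1. In both genes the control libraries spanned the value of the first hairpin 1 replicate. The core occurred in the promoters (250 bases before to 50 after the start site) of 3.99% of 27025 genes, and in 21 of the 569 members with a promoter entry (3.69%). It was found in 1 of 50 departing members of chromosome 12 and in 3 of 37 of chromosome 14. The AP-1 site TGANTCA, searched the same way, was in 8.97% of all promoters and in 36 of the 569 members (6.33%). Neither share of members was above that of all promoters.

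Totals ran from 9272134 to 26284079 counts per library. Kmt5c, the targeted gene, had 72.6, 78.9 and 63.6 CPM in the set 1 controls and 52.4, 67.8 and 54.6 CPM with hairpin 1, so 1 hairpin library lay within the control range. In set 2 it had 129, 121, 115 and 128 CPM in the controls and 113, 111, 99.0 and 107 CPM with hairpin 2, with no overlap. The 8 intestinal epithelial markers summed to 5483 to 6941 CPM in set 1. Fibroblast markers summed to at most 2.06 CPM there, with Dcn and Lum at 0. The 4 endothelial markers summed to 48.6 CPM in the first hairpin 1 replicate, against 0.59 to 1.34 CPM in the other 2 and 0.50 to 2.51 CPM in the controls, with Emcn at 0 in all 6. The 6 immune markers summed to 53.8 CPM in that replicate, 6.20 to 8.05 CPM in the other 2 and 9.90 to 39.5 CPM in the controls. In the endothelial and in the immune list, only 1 gene had a mean of at least 1 CPM with hairpin 1. The high sums in the first replicate thus came mostly from single genes and are not read as cell types. The part of these markers in the shifts below was not tested. In bulk RNA, fewer cells of a type and less RNA per cell cannot be told apart.

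In the first hairpin 1 replicate, chromosome 12 lay above the controls and chromosome 14 below them over most of their members. The shift of a gene in a library is its deviation, log2(CPM + 0.5) minus the mean of the control libraries of the set, with the median of the other autosomes put at 0. A control library was set against the remaining controls. The median deviation of chromosome 12 was 0.67, a ratio of 1.59, and 298 of 367 members (81.2%) lay above 0. That of chromosome 14 was -0.69, a ratio of 0.62, and 55 of 348 members (15.8%) lay above 0. In the 3 controls the median ranged from -0.09 to 0.07 on chromosome 12 (SD 0.080) and from -0.02 to 0.07 on chromosome 14 (SD 0.049). The medians of the other autosomes in the same hairpin library ran from -0.13 (chromosome 7) to 0.17 (chromosome 1). This library was also more dispersed as a whole: the middle 50% of genes on the other autosomes lay between -0.48 and 0.49, against -0.28 and 0.27 in the most dispersed control.

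**Figure D1:**
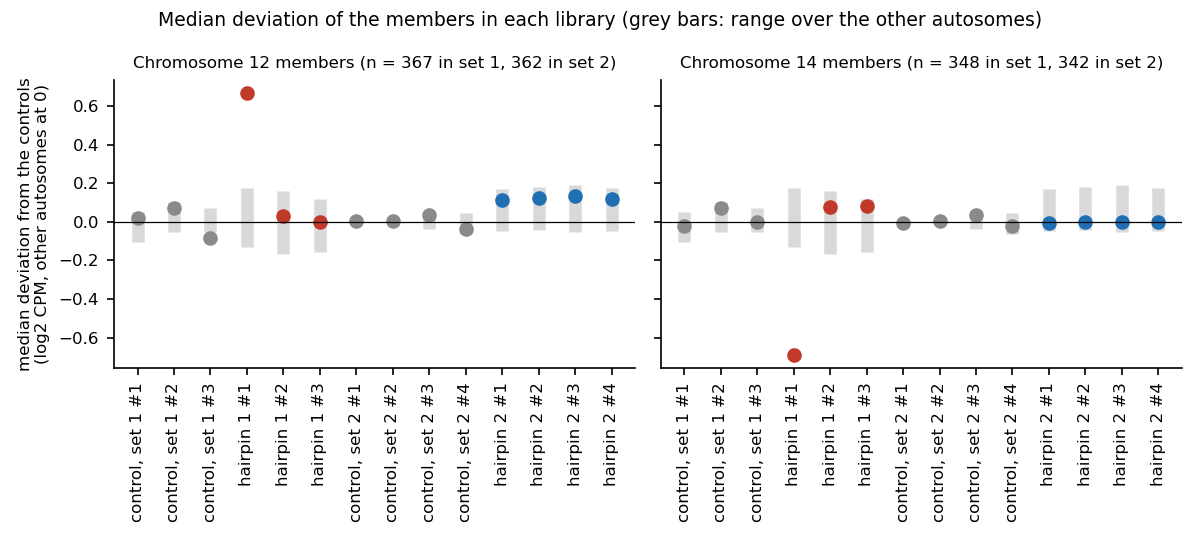
Median deviation (log2 CPM relative to the set's controls) of the chromosome 12 members (left) and chromosome 14 members (right) in each of the 14 libraries; points are libraries and grey bars span the medians of the other autosomes in the same library. The first hairpin 1 replicate sits at 0.67 and -0.69, outside its grey bar on both chromosomes, while the 4 hairpin 2 libraries sit between 0.11 and 0.14 on chromosome 12, inside theirs.

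The other hairpin 1 libraries did not share these shifts. Their medians were 0.03 and -0.00 on chromosome 12 and 0.08 and 0.08 on chromosome 14. On chromosome 12 these lay within the range of the controls. On chromosome 14 they lay just above the highest control.

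Along both chromosomes the shift kept one sign from end to end. Members were grouped by gene start into 10 Mb windows, of which those with at least 10 members were read. All 10 such windows of chromosome 12 had a median above 0 in the first hairpin 1 replicate, from 0.25 at 20 to 30 Mb (22 members) to 0.92 at 70 to 80 Mb (47 members). All 9 windows of chromosome 14 had a median below 0, from -0.37 at 40 to 50 Mb (29 members) to -0.96 at 50 to 60 Mb (88 members). The first window of chromosome 12 read 0.62 and the last, 110 to 120 Mb, 0.64. On chromosome 14 the window at 10 to 20 Mb read -0.47 and that at 120 to 130 Mb -0.90. The control windows of chromosome 12 ran from -0.31 to 0.43. In the hairpin library 20 to 30 Mb (0.25) and 100 to 110 Mb (0.41, 42 members) were thus no higher than the highest control window. The control windows of chromosome 14 ran from -0.12 to 0.16, above every window of the hairpin library.

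**Figure D2:**
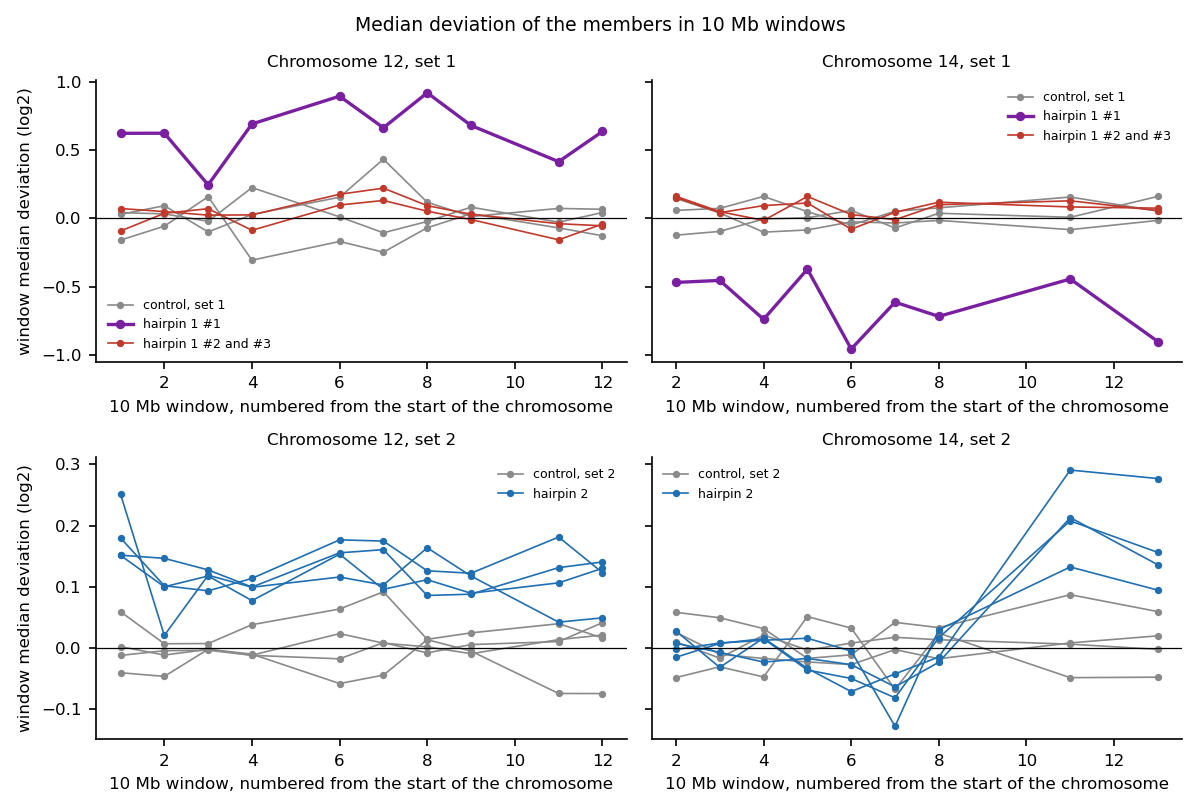
Window medians (log2 deviation) against the number of the 10 Mb window, counted from the start of the chromosome, for chromosome 12 (left) and 14 (right) in set 1 (top) and set 2 (bottom, with a smaller vertical range); each line is a library and windows with fewer than 10 members are left out. The first hairpin 1 replicate runs between 0.25 and 0.92 on chromosome 12 and between -0.96 and -0.37 on chromosome 14, and the hairpin 2 libraries leave the controls at the last 2 windows of chromosome 14.

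Within this shift single genes varied widely. Members were called following when their deviation had the sign of the chromosome median and 0.5 to 2 times its size, weaker or stronger when below or above that range, and departing when the sign was opposite. On chromosome 12, between 0.33 and 1.34, 179 members followed (48.8%, against 25.7% of the genes on the other autosomes in the same range). There, 71 were stronger, 48 weaker and 69 departed (18.8%). On chromosome 14, between -1.38 and -0.34, 181 followed (52.0%, against 25.1%), 64 were stronger, 48 weaker and 55 departed (15.8%). By construction 0.5 of the genes on the other autosomes lie on each side of 0. The value of the replicate lay above all 3 controls for 254 members of chromosome 12 (69.2%) and below all 3 for 50. Of all 10162 autosomal genes at or above the level bound, 34.8% lay above all 3 and 38.7% below. On chromosome 14, 258 members lay below all 3 controls (74.1%) and 34 above. Of the departing members, 50 of 69 on chromosome 12 and 34 of 55 on chromosome 14 lay beyond all controls, and the rest lay within the control range. On the other autosomes, with 0.5 of the genes on each side of 0, 38.4% lay below all 3 controls and 34.3% above. The counts of departing members beyond the controls thus do not set them apart from other genes.

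**Figure D3:**
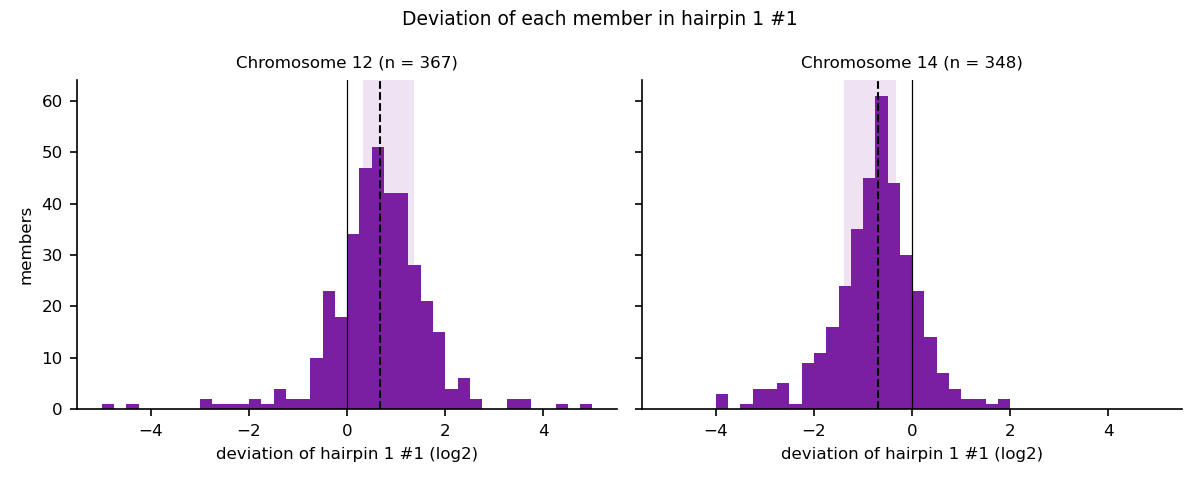
Number of members by deviation (log2, bins of 0.25) in the first hairpin 1 replicate for chromosome 12 (left, 367 members) and chromosome 14 (right, 348 members); the solid line is 0, the dashed line the chromosome median and the shaded band the range called following. Each chromosome forms a single broad peak around its median, 0.67 and -0.69, with tails on both sides.

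Departing and following members were set side by side on level, length, gene type, control spread and position. Of these, level also set the bound for membership. The median level was 27.2 CPM in departing and 45.1 CPM in following members of chromosome 12. On chromosome 14 it was 40.6 and 44.5 CPM. The median deviation in the lowest, middle and highest tertile of mean CPM was 0.55, 0.74 and 0.62 on chromosome 12 and -0.69, -0.72 and -0.67 on chromosome 14. Departing members of chromosome 12 had a median transcript length of 2252 bases, against 4086 in the following members, and 81.2% of them were protein-coding, against 98.9%. On chromosome 14 the lengths were 4191 and 3761 bases and the shares 98.2% and 98.9%. The median SD of log2 values over the 3 set 1 controls was 0.24 in departing and 0.26 in following members of chromosome 12, and 0.28 and 0.22 on chromosome 14. Departing genes were found along both chromosomes, in unequal shares. On chromosome 12, 38 of 56 members lay above 0 at 110 to 120 Mb and 31 of 34 at 50 to 60 Mb. On chromosome 14, where members above 0 depart, 11 of 42 did so at 20 to 30 Mb and 6 of 88 at 50 to 60 Mb. These differences between windows were not tested. The longest run of neighbouring departing members was 4 on chromosome 12 (Ckb, Trmt61a, Bag5 and Apopt1, chr12:111669361-111755053) and 3 on chromosome 14 (Appl1, Il17rd and Arhgef3, chr14:26918988-27403911). Of the latter, Il17rd (0.06) lay within the controls, and with the length and GC trend of the other autosomes removed Appl1 and Il17rd were weaker and not departing. Runs without a departing member reached 28 genes on chromosome 12 (Sf3b6 to Hpcal1) and 31 on chromosome 14 (Ktn1 to Oxa1l). Bag5 and Apopt1 lie almost end to end on opposite strands, and whether counting used strand is not given in the sources used here.

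Transcript length moved with the deviation genome-wide in this library. On the other autosomes the median deviation was -0.31 for transcripts under 2625 bases, 0.02 for those between and 0.29 for those over 4281 bases. Chromosome 12 members read 0.15, 0.68 and 1.02 in the same ranges, which is 0.46, 0.66 and 0.73 above the other autosomes. Chromosome 14 members read -0.96, -0.72 and -0.50, which differs from the other autosomes by -0.65, -0.74 and -0.79. With the trend on length and base composition (GC content) of the other autosomes taken off each gene, the medians were 0.58 and -0.83. Then 63 members of chromosome 12 departed, 54 of them among the original 69, and 44 of chromosome 14, 40 of them among the original 55. The window medians then ran from 0.30 at 20 to 30 Mb to 0.87 at 50 to 60 Mb on chromosome 12 and from -0.96 at 50 to 60 Mb to -0.58 at 20 to 30 Mb on chromosome 14. The windows of chromosome 14 at 40 to 50 and 10 to 20 Mb, at -0.37 and -0.47 before, read -0.61 and -0.76.

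Members of chromosome 12 with the most reads spanned the range from departing to following. Hsp90aa1, a cytosolic chaperone, had 535, 799 and 548 CPM in the controls and 1234, 645 and 695 CPM with hairpin 1. Its first hairpin replicate lay above every other library, at 1.97 times the control mean. The ribosomal protein genes Rps7 and Rps29 had deviations of 0.08 and -0.12, within the controls, although ribosomal genes have near-identical copies elsewhere and their counts are uncertain. Gpx2, a glutathione peroxidase of the gut epithelium, had a deviation of -0.08, and Sypl, a vesicle membrane protein, of -0.90.

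The members farthest above the controls on chromosome 12 mostly had few reads in the other libraries. Hdac9, a histone deacetylase (chr12:34047580-34917095), had 1.69, 0.74 and 0.66 CPM in the controls, 39.2 CPM in the first hairpin 1 replicate and 0.12 and 0.36 CPM in the other 2. Syne3, a nuclear envelope protein, had 36.4 CPM in that replicate and at most 3.27 CPM in the 5 other libraries. Over those 5 libraries 7 members of chromosome 12, these included, had a mean under 5 CPM, so that they are members only through the first hairpin 1 replicate and had to lie above the mean of the others in it. On chromosome 14 there were 0 such members. Kcnf1, a potassium channel subunit, had 5.84, 5.90 and 5.20 CPM in the controls and 68.2, 8.52 and 5.22 CPM with hairpin 1. Tnfaip2 (deviation 3.51), the guanine nucleotide exchange factor Dock4 (3.40) and the protein kinase A regulatory subunit Prkar2b (3.33) showed the same separation of a single library from the rest.

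Against the direction of chromosome 12, the gene farthest down was Ckb, brain-type creatine kinase, at chr12:111669361-111672338. It had 134, 160 and 104 CPM in the controls, 4.202 CPM in the first hairpin 1 replicate and 109 and 135 CPM in the other 2, a deviation of -4.78. The replicate lay 31.6-fold below the control mean of 133 ± 27.6 CPM (SD, n = 3). Bcl11b, a zinc finger transcription factor, had 15.2, 17.0 and 7.79 CPM in the controls and 1.20 CPM in that replicate. Agr2, a protein disulfide isomerase of secretory epithelial cells, had 328, 211 and 255 CPM in the controls and 64.4, 466 and 503 CPM with hairpin 1, so the first replicate lay below and the others above all controls. The LIM protein gene Crip2 (deviation -2.51), the acyl-CoA thioesterase gene Acot1 (-2.76) and the asparaginase gene Aspg (-1.87) also lay below all controls. Ifi27l2a and Ifi27l2b, interferon-induced genes side by side, had deviations of -4.28 and -2.26. All 3 hairpin 1 libraries lay below every control in both, at 0.64, 6.86 and 6.30 CPM against at least 7.81 CPM for Ifi27l2a and at 36.6, 115 and 101 CPM against at least 155 CPM for Ifi27l2b. As near-identical copies their reads may have been split, as may those of Acot1 and its neighbour Acot2.

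**Figure D4:**
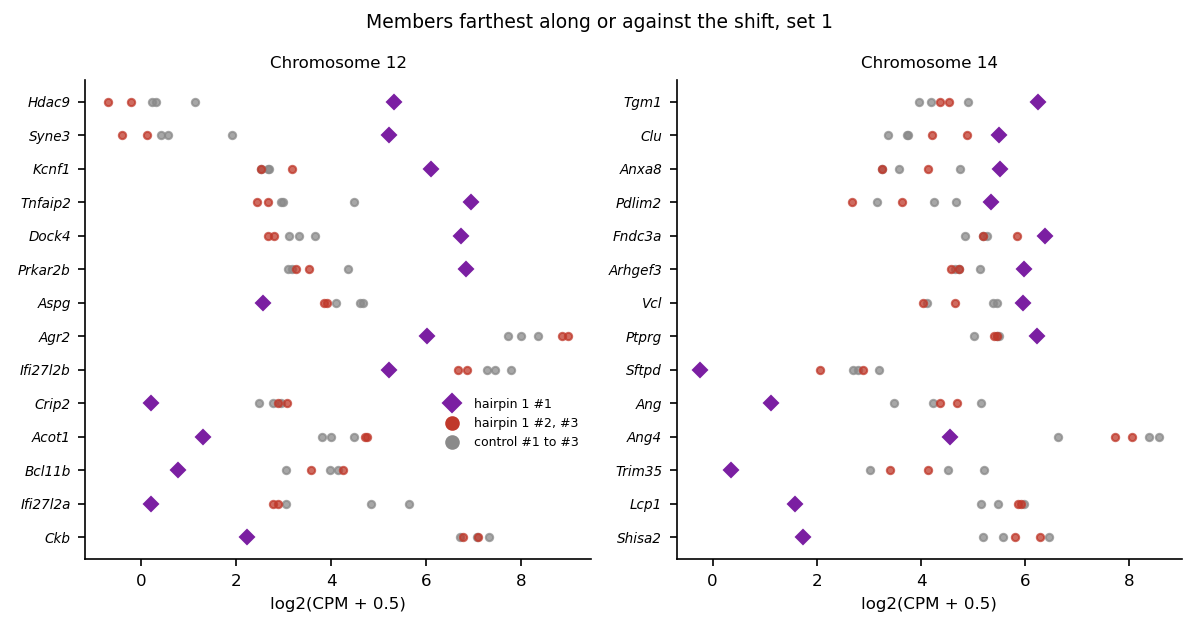
Log2(CPM + 0.5) of the chromosome 12 (left) and chromosome 14 (right) members farthest along and against the chromosome's shift, in each set 1 library; diamonds are the first hairpin 1 replicate, red points its other 2 replicates and grey points the 3 controls. The diamond stands apart from all 5 other libraries for Hdac9 and Syne3 on the high side and for Ckb, Bcl11b, Shisa2 and Lcp1 on the low side.

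On chromosome 14 all 6 members with the most reads lay below the controls in the first hairpin 1 replicate. Of all members of the chromosome, 74.1% did. Tkt, the pentose phosphate enzyme transketolase (chr14:30548359-30574720), had 587, 569 and 564 CPM in the controls and 268, 567 and 627 CPM with hairpin 1. That replicate was 2.14-fold below a control mean with an SD of 12.1 CPM (n = 3). Hnrnpc, an RNA-binding protein, had a deviation of -0.30 and Ctsb, the lysosomal protease cathepsin B, of -0.67. Tpt1, the translationally controlled tumor protein, had -0.66. The ribosomal genes Rpl15 (-1.15) and Rps24 (-1.46) were lower still, with the same uncertainty over copies.

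Farthest down on chromosome 14 was Shisa2, a regulator of Wnt and FGF receptor maturation, with 47.1, 36.0 and 87.1 CPM in the controls and 2.83, 77.9 and 55.0 CPM with hairpin 1. Lcp1, an actin-bundling protein best known from leukocytes, had 35.0, 62.6 and 44.1 CPM in the controls and 2.49 CPM in the first hairpin 1 replicate. The immune marker sum, which rested mostly on a single gene, was highest in that replicate. Ang4, an antimicrobial ribonuclease of Paneth cells, had 379, 99.0 and 334 CPM in the controls and 23.1, 264 and 211 CPM with hairpin 1. Ang (-3.14) and the collectin gene Sftpd (-3.11) were as far down. Ang and Ang4 are close copies, so their counts are uncertain.

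Against the direction of chromosome 14, 34 members (9.77%) lay above all controls in the first hairpin 1 replicate, where 34.8% of all autosomal genes did. Clu, an extracellular chaperone, had 12.9, 12.7 and 9.79 CPM in the controls and 44.5, 28.9 and 18.1 CPM with hairpin 1, above all controls in every hairpin library. The first replicate was at 3.77 times the control mean. Tgm1, a transglutaminase of the cornified envelope, had 17.7, 29.6 and 15.0 CPM in the controls and 74.9, 22.7 and 20.0 CPM with hairpin 1. Anxa8, an annexin, had 45.4 CPM in the first replicate and at most 26.3 CPM in the other set 1 libraries. Pdlim2 (1.36), Fndc3a (1.31), Arhgef3 (1.17), the vinculin gene Vcl (1.01) and the receptor phosphatase gene Ptprg (0.93) also lay above all controls.

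By function, members of a list mostly carried the sign of their own chromosome. All 7 chromatin regulators of chromosome 12 were following or stronger, among them the polycomb-related Asxl2 and Yy1 (0.60), and Dnmt3a (1.61, with 64.5 CPM in the replicate and at most 26.3 CPM in the controls). Hdac9, counted among the 7, is a member only through the first hairpin 1 replicate and had to lie high in it. Of the 8 on chromosome 14, 5 followed and 3 were weaker. Chd8 (-0.68) and Pbrm1 (-0.69), both chromatin remodelling subunits or enzymes, lay at the chromosome median. The 5 cell cycle genes of chromosome 14 all followed, from Dlgap5 (-0.37) to the mitotic kinase Pbk (-1.16), with Rb1 at -0.51. The 10 cell cycle genes of chromosome 12 were divided into 3 that followed, 2 stronger, 2 weaker and 3 that departed, among them the recombination gene Rad51b (-1.46). Core machinery genes, such as proteasome and ribosome subunits, departed in 1 of 9 members on chromosome 12 and none of 7 on chromosome 14. Metabolic enzymes departed in 2 of 3 on chromosome 12 (Ckb and the tryptophan tRNA ligase gene Wars) and none of 8 on chromosome 14.

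Of 6 chromosome 14 members in the list of intestinal differentiation and transport, 3 departed, Tgm1, the amino acid carrier Slc7a7 (0.25) and Klf5. Another 2 were stronger, Ang4 and the transcription factor Gata4 (-2.71). The list is broad, as Tgm1 is named above as a gene of the cornified envelope. On chromosome 12, 3 of 4 members of that list departed, Agr2, Gpx2 and Mthfd1. Of these, Gpx2 (-0.08) and Mthfd1 (-0.05) lay within the controls, and with the length and GC trend removed Mthfd1 was weaker (0.01). The pioneer factor Foxa1 was stronger (1.90, with 356 CPM in the replicate and at most 114 CPM in the controls). Of 7 interferon and antigen processing genes on chromosome 12, 3 followed, 1 was weaker and 3 departed. All 4 on chromosome 14 lay below all controls, as did 74.1% of all members of the chromosome. They were the proteasome activator subunits Psme1 (-1.92) and Psme2 (-1.70), the interferon signalling factor Irf9 (-1.37) and the necroptosis kinase Ripk3 (-0.43). Early response genes lay above the controls in 6 of 8 members on chromosome 12, Rhob (1.75) farthest, where 69.2% of all members of the chromosome did, with Id2 (-1.35) departing. On chromosome 14, 3 of 4 were weaker. In the fetal-like list, Clu and Anxa8 departed and 3 of 5 followed on chromosome 14, and Sdc1 on chromosome 12 was stronger (1.34). Of the TGF-beta, BMP and Wnt genes, none of 4 departed on chromosome 12 and none of 2 on chromosome 14. None of the 6 imprinted Dlk1-Meg3 genes reached the level bound. These lists were drawn up with results of these data known, so their counts describe and support nothing.

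With all 3 hairpin 1 libraries against the 3 controls, no member passed. The edgeR quasi-likelihood test called 0 of 13540 genes at an adjusted p of 0.05 (0%), and 30 of 367 members of chromosome 12 and 14 of 348 of chromosome 14 had an unadjusted p below 0.05, as did 733 of all 13540 genes. DESeq2 called 0 members too. This fit holds the library by which the chromosomes were chosen. Without that library edgeR again called 0 members (and 1 gene in all), with 61 and 35 at an unadjusted p below 0.05, as were 2187 of all 13883 genes. The fitted log2 fold change was then above 0 in 50.1% of chromosome 12 members and 56.9% of chromosome 14 members.

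In set 2, whose libraries share no controls with set 1, chromosome 12 was higher with hairpin 2 by a small and even amount, while chromosome 14 as a whole was not. Of the members, 362 on chromosome 12 and 342 on chromosome 14 were listed in set 2. The chromosome 12 median was 0.12 ± 0.010 (SD, n = 4) with hairpin 2 and 0.00 ± 0.030 (SD, n = 4) in the controls, with ranges of 0.11 to 0.14 and -0.04 to 0.04. The groups did not overlap and differed by 0.12. Deviations above 0 were found for 66.9% to 80.9% of the members in the single hairpin 2 libraries. The chromosome was not alone in this. In each hairpin 2 library chromosome 13 had a higher median, from 0.17 to 0.19, so chromosome 12 lay within the range of the other autosomes. For chromosome 14 the medians were -0.00 ± 0.0025 with hairpin 2 and 0.00 ± 0.025 in the controls (SD, n = 4 each), a difference of -0.0040, and the groups overlapped. The 8 epithelial markers summed to 5629 to 5730 CPM in the set 2 controls and 4433 to 4986 CPM with hairpin 2, and the 3 of 6 fibroblast markers listed there to 9.19 to 11.9 and 13.97 to 15.5 CPM. Neither sum overlapped between the groups, and their part in the set 2 differences was not tested. Only 1 of the listed fibroblast markers had a mean of at least 1 CPM, in the controls and with hairpin 2 alike.

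In 10 Mb windows the same held along the whole of chromosome 12. All 10 windows were higher in every hairpin 2 library than in any control, by 0.10 at 30 to 40 Mb to 0.18 at 0 to 10 Mb. On chromosome 14, 7 of 9 windows overlapped. Windows of the other autosomes were not computed, so these counts cannot be called particular to chromosomes 12 and 14. At 100 to 110 Mb (14 members) the hairpin 2 libraries lay between 0.13 and 0.29 and the controls between -0.05 and 0.09, a difference of 0.20. At 120 to 130 Mb (14 members) the ranges were 0.09 to 0.28 and -0.05 to 0.06, a difference of 0.16. With the length and GC trend removed these differences were 0.18 and 0.17.

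Gene by gene, more members of chromosome 12 rose with hairpin 2 than fell. With edgeR's quasi-likelihood test over 14126 genes (Benjamini-Hochberg adjusted p of 0.05), 26 of 358 members rose and 3 fell on chromosome 12, where 2.04% of all genes rose and 4.01% fell. On chromosome 14, 9 of 337 rose and 16 fell. In the fit with the replicate block (same-numbered libraries treated as pairs), 122 members rose and 9 fell on chromosome 12, and 41 rose and 36 fell on chromosome 14, where 10.2% of all genes rose and 10.1% fell. Replicate 4 of both groups stood apart from the other replicates in set 2. Without both of these libraries 100 members rose and 11 fell on chromosome 12, and 30 rose and 32 fell on chromosome 14, where 7.93% of all genes rose and 9.02% fell. All 29 and 25 members called without the block were called with it. Every hairpin 2 library lay above every control for 82 members of chromosome 12 (22.7%) and 26 of chromosome 14, against 8.49% of 10128 autosomal genes. All hairpin 2 libraries lay below every control for 7 and 30 members, against 7.92% of those genes. The 10128 hold genes of the other autosomes with a mean of at least 5 CPM in set 2 and the 704 listed members, of which 656 reached that level there. Leaving out control 1, 2, 3 or 4 left 11, 6, 20 and 17 rising members on chromosome 12, and leaving out hairpin 2 replicate 1, 2, 3 or 4 left 12, 12, 12 and 47. The falling members of chromosome 12 were 3, 3, 3, 4, 4, 4, 5 and 6 in the same order. On chromosome 14 the rising members were 2, 2, 3, 5, 5, 2, 3 and 21 and the falling ones 9, 9, 11, 13, 10, 10, 13 and 24. Calls over all genes moved with these fits. In the same order, 0.78%, 0.58%, 1.12%, 1.38%, 0.97%, 0.75%, 0.93% and 3.94% of all genes rose. The shares that fell were 2.82%, 2.58%, 3.14%, 3.34%, 2.69%, 2.54%, 2.99% and 5.90%.

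**Figure D5:**
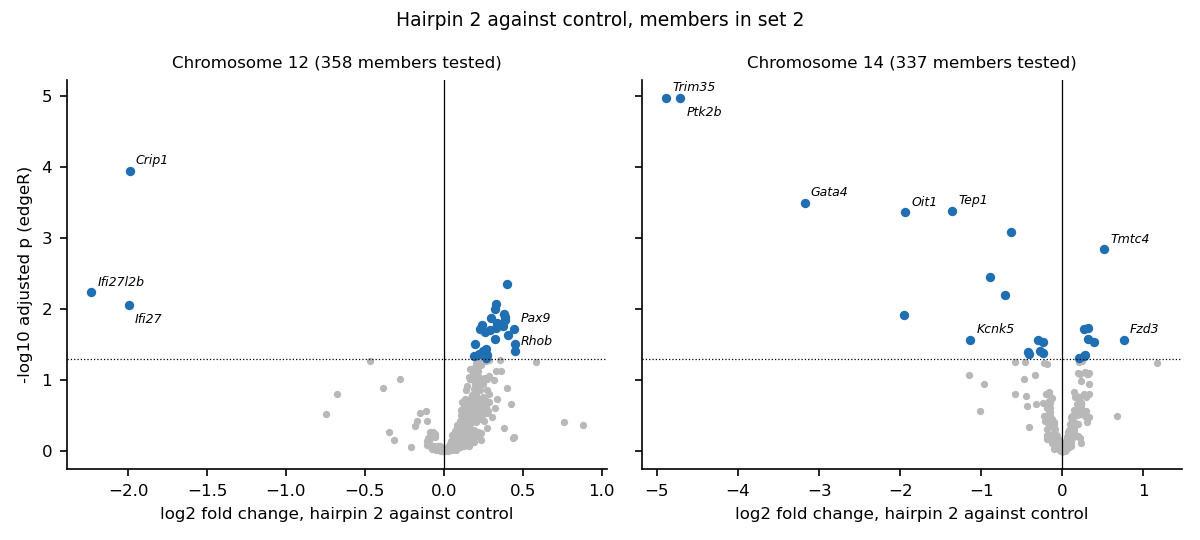
Log2 fold change of hairpin 2 against control against -log10 of the edgeR adjusted p for the tested members of chromosome 12 (left, 358) and chromosome 14 (right, 337); blue points passed an adjusted p of 0.05, marked by the dotted line. On chromosome 12 the cloud lies to the right of 0, with 26 calls rising and 3 falling, and on chromosome 14 it is centred on 0, with Trim35 and Ptk2b far to the left.

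The rises on chromosome 12 were small. Hif1a, the oxygen-regulated transcription factor (chr12:73901375-73947530), had 485, 457, 522 and 476 CPM in the controls and 594, 591, 637 and 713 CPM with hairpin 2, with no overlap. Its log2 fold change was 0.38 ± 0.073 (SE, edgeR adjusted p = 0.0127). Ttc7b, part of a phosphatidylinositol 4-kinase complex, rose by 0.40 ± 0.063 (SE, edgeR adjusted p = 0.0044), from 39.4 to 43.1 CPM in the controls to 50.6 to 59.0 CPM. Rhob (0.45), the endosomal GTPase, the pharyngeal and tooth developmental factor gene Pax9 (0.45), the epithelial factor Grhl1 (0.40), the RNA polymerase I factor Taf1b (0.39), Acot1 (0.38), the inhibitor of differentiation Id2 (0.27) and Dnmt3a (0.26) also rose, each at an edgeR adjusted p below 0.05. Only Ttc7b and Acot1 of these kept their call in all 8 fits that left out 1 library. Hif1a lost it in 1, Taf1b in 2, Grhl1 in 3, Pax9 in 4, Rhob and Id2 in 6 and Dnmt3a in 7, with adjusted p up to 0.155.

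The 3 genes that fell on chromosome 12 lay in its distal part and fell farther than any member rose there. Crip1, a LIM protein abundant in the intestine (chr12:113146316-113153879), had 16.2, 17.9, 15.1 and 17.0 CPM in the controls and 3.98, 2.93, 5.07 and 5.27 CPM with hairpin 2. It fell by 1.99 ± 0.167 on the log2 scale (SE, edgeR adjusted p = 0.000111). The interferon-induced Ifi27 had 2.24 to 4.64 CPM in the controls and 0.58 to 1.51 CPM with hairpin 2, and fell by 2.00 (SE 0.351, edgeR adjusted p = 0.00854). Ifi27l2b fell by 2.23, at under 1 CPM in all 8 libraries, and its reads may be split with its copies. In set 1, Crip1 had 114, 77.1 and 128 CPM in the controls and 91.8, 49.5 and 77.4 CPM with hairpin 1, so the second hairpin replicate lay below all controls and the other 2 within them. Ifi27 had 449, 181 and 290 CPM in the controls and 296, 131 and 105 CPM with hairpin 1, the first replicate within the controls and the other 2 below them all.

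On chromosome 14 the largest falls were in a pair of neighbours. Trim35, a ubiquitin ligase gene (chr14:66297031-66311424), had 9.93, 13.4, 11.8 and 16.4 CPM in the controls and 0.27, 0.32, 0.54 and 0.84 CPM with hairpin 2, a fall of 4.89 ± 0.294 (log2, SE, edgeR adjusted p = 1.05e-05). Ptk2b, a calcium-responsive tyrosine kinase (chr14:66153257-66281052), had 10.7, 12.1, 11.4 and 12.1 CPM in the controls and 0.22, 0.28, 0.86 and 0.75 CPM, a fall of 4.72 ± 0.285 (log2, SE, edgeR adjusted p = 1.05e-05). Neither gene overlapped between the groups. In set 1, Trim35 had 22.2, 36.5 and 7.57 CPM in the controls and 0.77, 17.0 and 10.02 CPM with hairpin 1, and Ptk2b had 39.0, 23.1 and 26.5 CPM in the controls and 14.9, 26.5 and 20.9 CPM. Only the first hairpin 1 replicate lay below the controls in both genes, Trim35 at a deviation of -3.87 and Ptk2b at -0.90, near the chromosome median.

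Gata4, a transcription factor of the proximal small intestine (chr14:63198922-63271692), had 2.77, 1.76, 2.47 and 2.24 CPM in the controls and 0.22, 0.16, 0.22 and 0.50 CPM with hairpin 2, and fell by 3.18 ± 0.318 (log2, SE, edgeR adjusted p = 0.000315). Oit1, a secreted protein of the gut, fell by 1.94 and Tep1, a telomerase-associated protein, by 1.36. The galactose-binding lectin Lgals3 fell by 0.63, from 263 to 317 CPM in the controls to 170 to 194 CPM, and Slc7a7 fell by 0.89. The potassium channel gene Kcnk5 fell by 1.13. Among these, Kcnk5 lost its call in 5 of 8 fits that left out 1 library and the others in none. Rising members included Fzd3, a Wnt receptor (0.76), Tmtc4, a mannosyltransferase of the endoplasmic reticulum (0.52), Zfp503 (0.39), the small GTPase Rap2a (0.31) and Commd6 (0.28). Tmtc4, at 79.1 to 83.5 CPM in the controls and 103 to 128 CPM with hairpin 2 (edgeR adjusted p = 0.00142), kept its call in all 8 such fits, while Fzd3 and Zfp503 lost it in 5, Commd6 in 7 and Rap2a in 2. Commd6 starts in the window at 100 to 110 Mb, Rap2a and Tmtc4 in that at 120 to 130 Mb.

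The set 2 values of the classes read from the first hairpin 1 replicate are given side by side, and differences between classes were not tested. On chromosome 12, the median log2 fold change of hairpin 2 was 0.14 in stronger, 0.14 in following, 0.12 in weaker and 0.07 in departing members. Of 63 tested departing members there, 4 rose and 2 fell, and of 179 following members, 13 rose and 0 fell. Of 69 stronger members 7 rose and 0 fell, and of 47 weaker ones 2 rose and 1 fell. Over all tested members of chromosome 12, 7.26% rose and 0.84% fell, against 2.04% and 4.01% of all genes. On chromosome 14 the medians were -0.05, -0.01, 0.04 and 0.03. There, 1 rose and 4 fell of 60 stronger members, 3 rose and 7 fell of 178 following, 1 rose and 0 fell of 47 weaker, and 4 rose and 5 fell of 52 departing members. Over all tested members of chromosome 14, 2.67% rose and 4.75% fell. Genes lower in the first hairpin 1 replicate and fallen with hairpin 2 included Trim35, Gata4 and Oit1, whereas Slc7a7, Id2 and Acot1 had opposite directions in these comparisons. In that replicate only 15.8% of all chromosome 14 members lay above 0, so a lower value there was the rule. The chromosomes were chosen on that library, so agreement with it supports nothing.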

How the data were processed

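The deposited files hold the authors' whole-number counts per gene, one file per library. Per the submitters' processing notes, bcl2fastq 2.20, FastQC, STAR, featureCounts and DESeq2 were used with GRCm38; no other version, and no strand setting of the counting, is stated there. Set 1 lists 55421 genes and set 2 17490, so the sets were fitted separately. Genes were placed with GENCODE M21, and promoters taken from RefSeq (GRCm38.p6).

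Counts were scaled to CPM and deviations computed as described with a pseudocount of 0.5 CPM (Python 3.11.15, pandas 2.3.3). Group tests used edgeR 4.0.16 (TMM, filterByExpr, glmQLFit, glmQLFTest) on R 4.3.3 over all genes of a set, with DESeq2 1.42.0 as an alternative. Alternatives changed the pseudocount, scaling, CPM minimum, count filter, replicate block and the libraries kept. The scripts were tested on simulated data. Totals were 16265034 to 23321606 counts in set 1 and 9272134 to 26284079 in set 2.

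Members and lists were chosen with earlier results of these data known. Named were, per chromosome and with established symbols only, the 6 members with the most reads, up to 8 farthest against and 6 farthest along the shift beyond all controls, up to 4 of each list (2 nearest to and 2 farthest from the chromosome median), and up to 6 calls per direction in set 2, besides Ptk2b, Trim35 and Kmt5c. A few other list members are named beside their list's counts and were chosen after their values were seen. In set 2, same-numbered libraries deviated from their group means together (correlations 0.51, 0.36, 0.55 and 0.77), so a fit with the replicate number as a block is given beside the main one. The pairing rests on the data, not the labels. Differently numbered pairs of replicates 1 to 3 also correlated there, at 0.25 to 0.39, while each pair of a replicate 4 library with another replicate read -0.60 to -0.47. In set 1, replicates 1 and 3 deviated together (0.31 and 0.35) and replicate 2 did not (0.00), so its libraries were not taken as paired. A few members that the naming rule selects are not reported here.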

Additional observations from a re-analysis of the deposited data

Results flagged for a closer look

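Of 56 groups of 4 libraries examined for a library far from the other 3, 3 stood out, and chance alone gives about 5% of groups. Lgals3 had 170 CPM in hairpin 2 replicate 4, below the other 3. Tep1 had 26.9 CPM in set 2 control replicate 4, above the other 3. Rap2a had 118 CPM in hairpin 2 replicate 3, above the other 3.

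For Ripk3, every hairpin 1 library lay below every control of its set, with an edgeR log2 fold change of -0.42, and every hairpin 2 library lay above every control of its set, at 0.29. Neither passed the adjusted threshold in its set, and the difference between the hairpins was not tested.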

How the results depend on the processing

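The medians of hairpin 1 replicate 1 kept their sign in every alternative run. Leaving out 1 control gave 0.65 to 0.69 on chromosome 12 and -0.72 to -0.66 on chromosome 14, with following shares of 45.8% to 49.9% and 46.8% to 55.5%. With the length and GC trend removed, an alternative chosen after seeing the data, the medians were 0.58 and -0.83 and the chromosome 14 following share 60.3%. A minimum of 1 or 20 CPM gave a chromosome 12 following share of 42.9% or 55.1%. In set 2 the chromosome 12 difference was 0.12 with and without the replicate block and 0.12 when any 1 library was left out. That of chromosome 14 was -0.0040, ran from -0.011 to 0.0045 when 1 library was left out, and was -0.015 with the replicate block and -0.013 at a minimum of 20 CPM.

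Rising and falling calls of hairpin 2 with DESeq2 were 49 and 5 on chromosome 12 and 18 and 24 on chromosome 14. Of all 17277 genes, 3.10% rose and 4.53% fell in that fit. With the replicate block the calls were 122 and 9 on chromosome 12 and 41 and 36 on chromosome 14, where 10.2% of all genes rose and 10.1% fell. Without both libraries of replicate 4, chosen after seeing the data, the calls were 100 and 11, and 30 and 32, where 7.93% of all genes rose and 9.02% fell. Leaving out 1 library gave 6 to 47 rising and 3 to 6 falling on chromosome 12, and 2 to 21 and 9 to 24 on chromosome 14. In those fits 0.58% to 3.94% of all genes rose and 2.54% to 5.90% fell. DESeq2 size factors or no filter on low counts left every one of these counts within 1.5 times. The causes were not tested. Among the named genes called for hairpin 2, 277 of the alternative fits kept the call and 61 lost it, none with a change of sign. Member calls for hairpin 1 stayed at 0 throughout. The depth of hairpin 2 replicate 3, 9272134 counts, limits genes under 1 CPM most.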
